A study of Mus musculus with 2 samples.

Results

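The subunits of the transcription factor AP-1 and 3 further immediate early genes were compared between 2 microarrays, 1 hybridised with RNA of cultured rib chondrocytes lacking the microRNA miR-140 (miR-140 KO) and 1 with RNA of wild-type cultures (WT). The genes are Fos, Fosb, Fosl1, Fosl2, Jun, Junb, Jund, Egr1, Ier2 and Dusp1, and every probe set whose single platform symbol is one of these names was taken. This gave 14 probe sets of 10 genes, out of 45101 probe sets and 18193 genes named by a single symbol on the array. Both cultures came from mice aged 5 days with a strain label that names C57BL/6 and CBA, and the study set out to find mRNAs under the control of miR-140. The sources used here do not state the knockout allele, the sex or number of animals behind each culture, or the serum and handling before RNA extraction. Each group has 1 array, so no spread between cultures is known, no test was possible, and every value below describes this pair of arrays.

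AP-1 is a dimer of basic leucine zipper proteins. FOS family proteins must pair with a JUN family protein to bind DNA, whereas JUN proteins can also pair with each other. Immediate early genes are transcribed within minutes of serum, growth factor, mechanical or handling stimuli, without new protein synthesis, and many of their messenger RNAs are short-lived. In cartilage AP-1 is known for its part in the expression of collagenase and stromelysin, and FOSL2 for its part in chondrocyte differentiation. The removed microRNA has strands miR-140-5p and miR-140-3p. The array does not measure either strand, and the 3p strand is shown here, from RefSeq on GRCm38.p6 at chr8:107551288-107551308, plus strand, with its seed (bases 2 to 8) in capitals, to identify what the knockout lacks.
mmu-miR-140-3p: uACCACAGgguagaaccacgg

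The deposited values are log2 signals, and a signal of at least 7 in 1 of the arrays was required to compare a gene, which 9897 genes met. Of the 10 members, 9 met it, each with the probe set of highest mean signal, and Fosb did not. In the miR-140 KO array 4 members stood farthest from the WT array, all of them lower: Dusp1, Fos, Junb and Egr1, by 1.26-fold to 1.47-fold. Jund and Fosl1 were lower by smaller amounts, and Ier2, Jun and Fosl2 were slightly higher. No member was 2-fold lower or 2-fold higher, where 1.22% and 0.475% of all genes compared were, and none was 1.5-fold lower or 1.5-fold higher, where 3.56% and 1.56% were. The median difference of the 9 genes was -0.15 on the log2 scale, beside -0.05 over all genes compared. By sign, 6 of the 9 were lower and 3 higher, beside 59.2% of all genes compared lower and 40% higher, so the count by sign is close to that of the whole array.

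**Figure D1:**
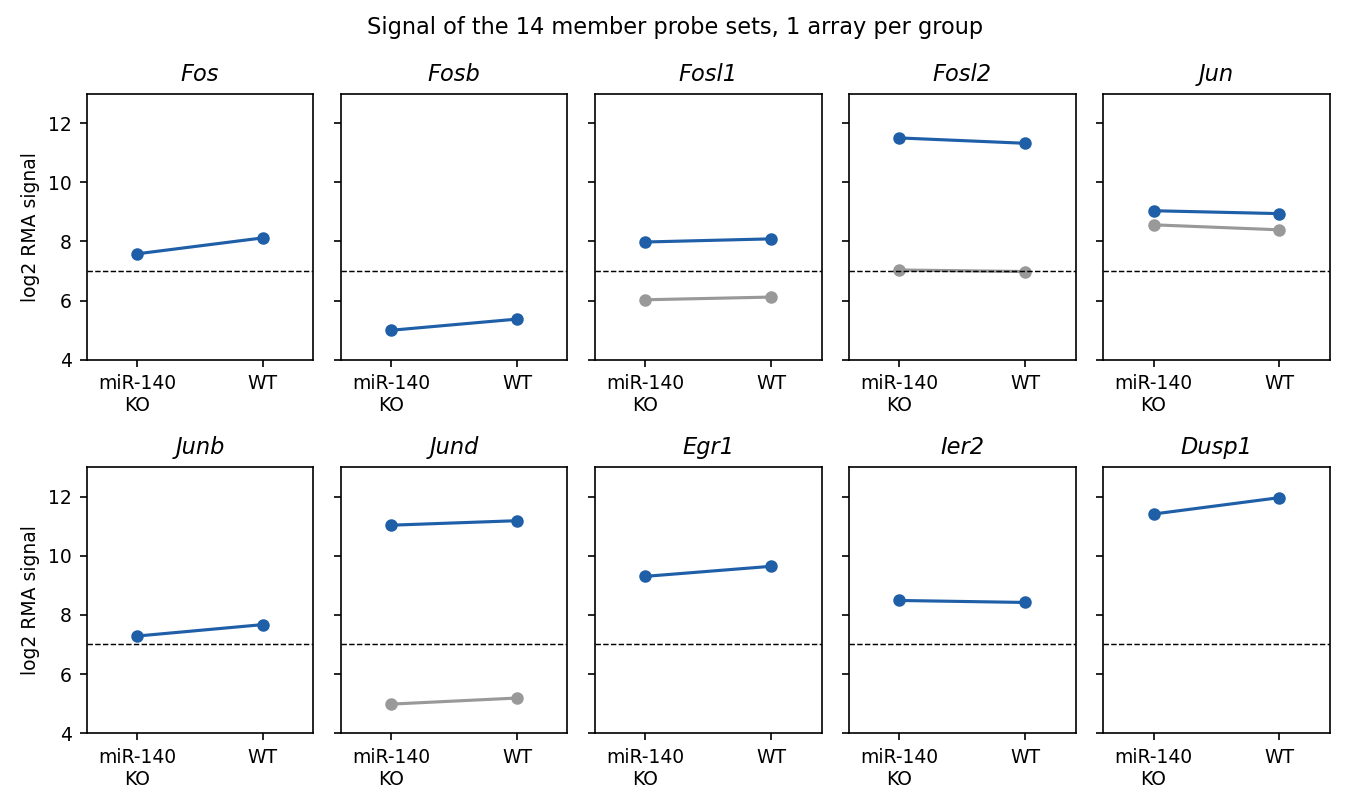
Log2 RMA signal (vertical axis) in the miR-140 KO array and the WT array (horizontal axis) for each of the 14 probe sets of the 10 genes, 1 panel a gene. Blue points are the probe set used for the gene, grey points the gene's other probe set, and the dashed line is the floor of 7. The blue lines of Fos, Junb, Egr1 and Dusp1 lie lower in the KO array (-0.55 to -0.34), those of Jun, Fosl2 and Ier2 lie higher (0.07 to 0.18), and Fosb lies under the floor in both arrays.

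The upstream sequences of 7 of the 10 genes were found in a RefSeq promoter table of GRCm38.p6. The 150 bases before the annotated start are shown for Fos, Junb and Dusp1, which were 3 of the 4 members farthest below the WT array, and for Jun, which was slightly higher in the KO array. Capitals mark TGACG, the short form of the cyclic AMP response element, the full element TGACGTCA that contains it, and the TATA box TATAAA, searched on both strands. The stretches lie at chr12:85473740-85473889 (plus strand) for Fos, chr8:84978749-84978898 (minus strand) for Junb, chr17:26508473-26508622 (minus strand) for Dusp1 and chr4:95052223-95052372 (minus strand) for Jun, and are written in the direction of transcription.
Fos: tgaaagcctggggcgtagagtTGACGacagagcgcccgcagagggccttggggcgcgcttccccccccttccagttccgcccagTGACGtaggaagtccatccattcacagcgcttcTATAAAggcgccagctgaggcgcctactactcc
Junb: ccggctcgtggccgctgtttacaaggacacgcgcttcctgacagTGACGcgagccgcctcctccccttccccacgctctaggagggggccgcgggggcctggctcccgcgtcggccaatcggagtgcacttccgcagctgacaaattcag
Dusp1: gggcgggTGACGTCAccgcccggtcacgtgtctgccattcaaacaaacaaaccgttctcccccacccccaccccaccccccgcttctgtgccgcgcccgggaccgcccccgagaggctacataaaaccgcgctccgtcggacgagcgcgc
Jun: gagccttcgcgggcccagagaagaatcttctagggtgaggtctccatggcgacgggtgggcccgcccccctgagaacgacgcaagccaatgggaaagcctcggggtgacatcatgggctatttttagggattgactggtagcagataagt

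Within 250 bases before the start, TGACG was found in 4 of the 7 promoters, those of Fos, Fosb, Junb and Dusp1, against 17.8% of 32851 promoter windows of the same length in the table. It was not found in the windows of Jun and Fosl2, both slightly higher in the KO array, or of Jund, which was lower (-0.15). Whether TGACG goes with the direction of the differences was not tested. Counted from the start, with negative positions upstream, TGACG begins in Fos at -66 and -129, in Fosb at -60 and in Junb at -106. Dusp1 holds the full element TGACGTCA, beginning at -143, which 1.55% of all windows hold, and a further TGACG at -191. None of the 7 windows held the AP-1 element in the form TGANTCA (6.75% of all windows) or the EGR site GCGTGGGCG (0.536%). The CArG box bound by serum response factor (1.47%) was in none of them either. Variant forms were not searched, so tgacatca in the Jun stretch shown above was not counted. Bases farther upstream than 250 were not searched, and Egr1 has no window here. These absences therefore do not show that a gene lacks such elements. The GC box GGGCGG was in 5 windows (Jun, Fosl2, Fosb, Fos and Dusp1; 32.7% of all), CCAAT in 2 (Jun and Junb; 33.8%) and TATAAA in that of Fos alone (12.4%). The 7 windows held 47.6% to 68.8% G and C, beside a median of 52.4% over all windows, and motif matches move with base composition. These matches are a description of letters, and no binding was measured.

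Fos, the founding member of the FOS family, read 7.58 in the KO array and 8.12 in the WT array, a log2 difference of -0.54 (1.45-fold lower). It is measured by 1 probe set. A difference at or below that of Fos was found for 4.09% of all genes compared and for 4% of the 500 genes nearest to it in mean signal. Fosb, the FOS family member most closely tied to repeated stimulation in neurons, read 4.99 and 5.37, under the floor in both arrays, so its difference of -0.38 lies in the range where signal is close to background.

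Fosl1, which encodes FRA1, read 7.98 in the KO array and 8.08 in the WT array by its brighter probe set, a difference of -0.11. Its other probe set read 6.03 and 6.12, a difference of -0.09, under the floor. Fosl2, which encodes FRA2, read 11.50 in the KO array and 11.32 in the WT array, a difference of 0.18 (1.13-fold higher), and 7.03 and 6.98 by its dimmer probe set, a difference of 0.05. Fosl2 was thus higher in the KO array by both of its probe sets, and of the 500 genes nearest in mean signal 13.8% had a difference at least as high. Within the FOS family the 3 genes above the floor therefore spanned -0.54 to 0.18, without a common direction. Because probes differ in how brightly they report, the levels of different genes are not ordered here.

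Jun, which like other JUN proteins pairs with FOS and JUN family proteins, read 9.04 in the KO array and 8.94 in the WT array, a difference of 0.10. Its second probe set above the floor read 8.56 and 8.39, a difference of 0.17, in the same direction. Junb, often described as a weaker activator that competes with JUN, read 7.28 in the KO array and 7.67 in the WT array, a difference of -0.39 (1.31-fold lower). Of the 500 genes nearest in mean signal 8% had a difference at or below that of Junb. Jund, the JUN family member that is less dependent on growth stimuli, read 11.03 and 11.18, a difference of -0.15, and 4.98 and 5.19 by a probe set under the floor, a difference of -0.21. The 3 JUN genes thus spanned -0.39 to 0.10, with Junb and Jun on opposite sides of 0.

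Dusp1, a phosphatase that inactivates MAP kinases and is itself induced by them, read 11.41 in the KO array and 11.96 in the WT array. Its difference of -0.55 (1.47-fold lower) was the farthest of the 9 genes compared. A difference at or below it was found for 3.94% of all genes compared and for 3.6% of the 500 nearest in mean signal. Egr1, a zinc finger transcription factor induced through serum response factor, read 9.30 in the KO array and 9.64 in the WT array, a difference of -0.34 (1.26-fold lower), and 9.8% of the 500 nearest genes had a difference at or below it. Ier2, an immediate early gene for a nuclear protein, read 8.49 and 8.42, a difference of 0.07. Among these 3 genes the phosphatase and Egr1 were lower and Ier2 was not.

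**Figure D2:**
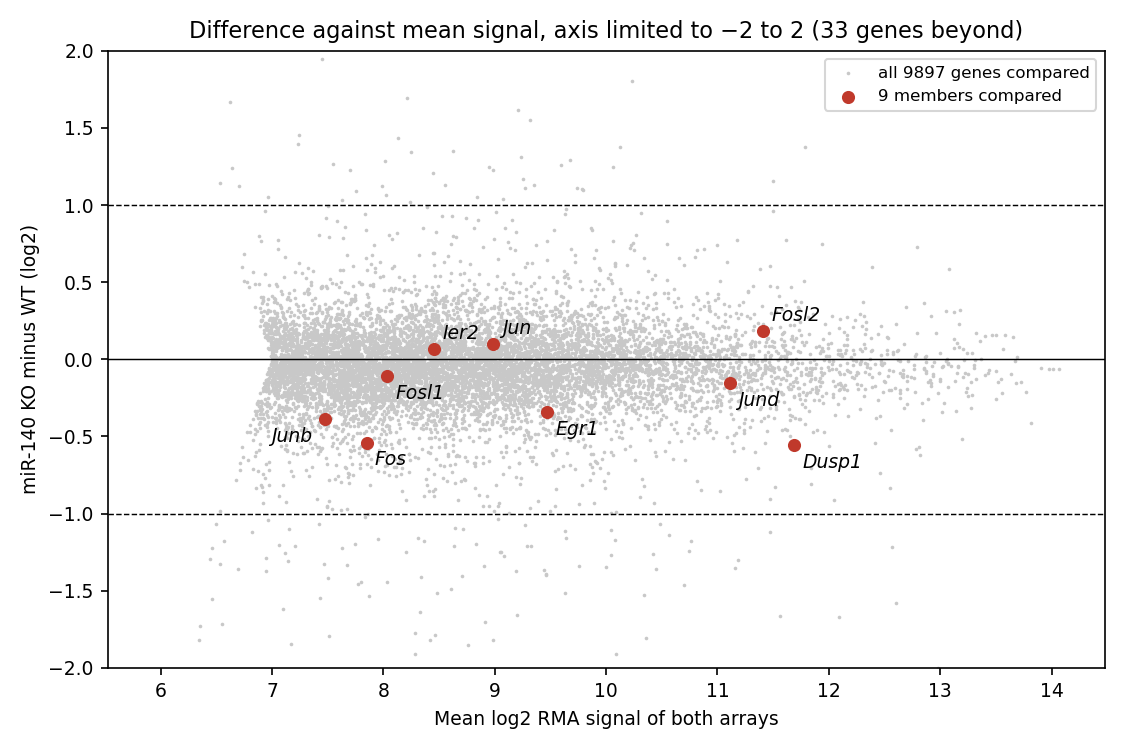
Log2 difference, miR-140 KO minus WT (vertical axis), against the mean log2 RMA signal of both arrays (horizontal axis). Grey points are the 9897 genes compared, of which 33 lie beyond the axis, red points are the 9 members above the floor, and dashed lines mark 2-fold. Dusp1 (-0.55) and Fos (-0.54) are the lowest members, and no member reaches a dashed line.

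All 9 members lay inside the central 95% of the 500 genes nearest to each in mean signal. Dusp1, Fos, Junb and Egr1 lay below the lower quartile of those genes, Jun and Fosl2 above the upper quartile, and Jund, Fosl1 and Ier2 between the quartiles. For Fos the central 95% ran from -0.61 to 0.48, and for Dusp1 from -0.65 to 0.45. The 4 genes with 2 probe sets (Fosl1, Fosl2, Jun and Jund) had the same sign by both, with gaps between the 2 differences of 0.015 to 0.13. For Fosl1 and Jund 1 of the 2 probe sets lies under the floor, which leaves the gaps of Fosl2 (0.13) and Jun (0.07) to set beside other genes. Among 2451 genes with exactly 2 probe sets above the floor the median gap was 0.18, and the sign was opposite in 38.2%. The differences of probe sets of the same gene had a pooled SD of 0.27 over 3838 genes. Fos and Dusp1 lie about as far as 2 of these SDs from 0, Junb and Egr1 between 1 and 2, and the other 5 within 1. This spread is that between probe sets on the same 2 arrays and says nothing about the spread between cultures.

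Other basic leucine zipper genes had no common direction, with a median of -0.03. Of 11 above the floor 6 were lower, beside 59.2% of all genes compared, and none was past 2-fold. At 1.5-fold 1 was lower and none higher, beside 3.56% and 1.56% of all genes compared. Maf, a large MAF factor of cartilage, read 11.03 in the KO array and 11.63 in the WT array (-0.60), and all 4 of its probe sets reaching the floor were lower, by -0.67 to -0.28. Jdp2, a JUN dimerisation protein that represses AP-1 sites, read 9.48 and 10.01 (-0.53). Crem, a cyclic AMP-responsive modulator, read 7.65 in the KO array and 7.08 in the WT array (0.57), with 0.40 by its second probe set, and Maff, a small MAF protein, stood at 0.26. Maf and Jdp2 were therefore lower by amounts like those of Fos and Dusp1, while Crem was higher by as much.

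Other immediate early genes were split evenly, with 17 of 34 above the floor lower and 17 higher, none past 2-fold. At 1.5-fold 2 were lower and 2 higher, beside 3.56% and 1.56% of all genes compared. The list median of 0.01 lay just below 0 after median centring. Zfp36l1, an RNA-binding protein that promotes decay of AU-rich messages, read 10.61 in the KO array and 9.86 in the WT array (0.75). Gadd45a, a growth arrest and stress gene, read 10.22 and 9.56 (0.66), but its relative Gadd45g read 9.18 and 9.90 (-0.73). Per1, a clock gene that is also induced by serum, read 7.54 in the KO array and 8.14 in the WT array (-0.60). Beside this even split, 6 of the 9 members and 59.2% of all genes compared were lower.

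The kinases and factors that act upstream of the members differed little by the probe set used for each gene. Of 11 MAP kinases and upstream kinases above the floor 8 were lower, beside 59.2% of all genes compared. The kinase median was -0.06, and none was past 1.5-fold. Map3k5, a stress-activated kinase, stood at -0.36, Mapkapk2, a kinase downstream of p38, at -0.27 and Mapk9, a JUN kinase, at 0.19, with 0.75 by its other probe set. Mapk14, which encodes p38 alpha, stood at -0.25 by the probe set used, but its 4 probe sets reaching the floor spanned -0.49 to 0.41. Of the serum response factor group 3 of 5 were lower, with a median of -0.01 that turned to 0.02 and 0.01 under quantile and lowess normalization. In that group stood Mrtfa, a coactivator of serum response factor, at -0.37, Elk3 at 0.20, Srf at -0.15 (0.09 by another probe set), and Elk4 at 0.02 (-0.09 to 0.14 over 4 probe sets). Of the other MAP kinase phosphatases 5 of 6 were higher, beside 40% of all genes compared, and their median was 0.08. Dusp10 stood at 0.31 and Dusp6, a phosphatase of ERK, at 0.23. Dusp7 stood at 0.09 (-0.07 by its other probe set) and Dusp8 at -0.42 (-0.06 by its other probe set). By the probe set used for each gene, Dusp1 and Dusp8 were the phosphatases with lower signal in the KO array among the 7 above the floor, and for Dusp7 the direction depends on the probe set.

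Genes whose promoters are described as holding AP-1 sites, in mouse or other mammals, were mixed. With a median of 0.05, 6 of 14 above the floor were lower and 8 higher, beside 59.2% and 40% of all genes compared. Past 2-fold were 2 of them, both higher in the KO array, beside 0.475% of all genes compared. Mmp3, stromelysin, read 12.07 in the KO array and 10.92 in the WT array (1.15), and Ptgs2, cyclooxygenase 2, read 8.30 and 7.21 (1.09, and 1.62 by its other probe set). Mmp13, a collagenase, read 13.16 in the KO array and 12.43 in the WT array (0.73), and Ccnd1, cyclin D1, stood at 0.47, the highest of 3 probe sets that went down to 0.15. These 4 genes have the largest differences of the list, and the 6 lower genes went down to -0.38 (Il6). The 4 were higher while Fos and Junb were lower and Jun and Fosl2 slightly higher. No relation between them can be measured with 2 arrays.

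**Figure D3:**
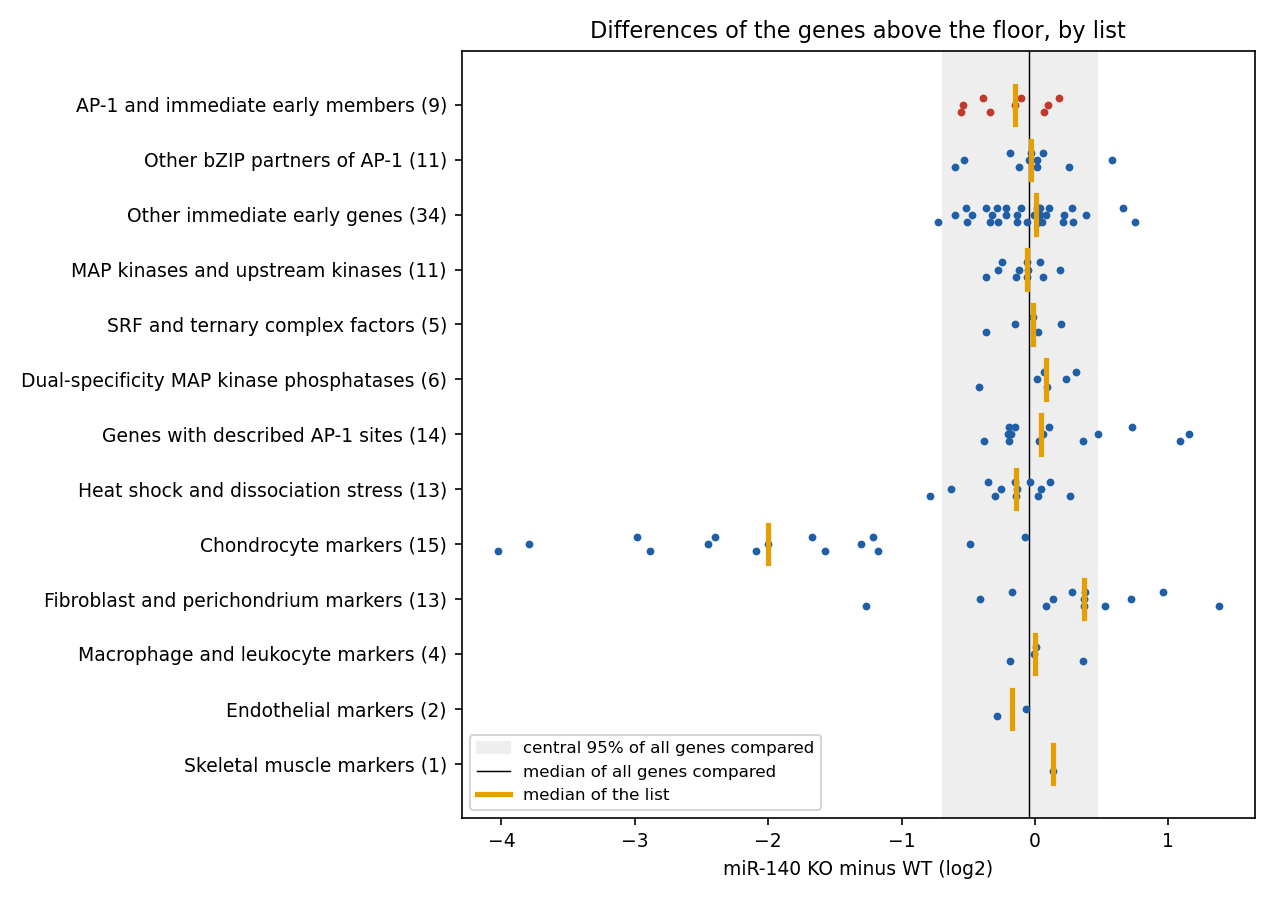
Log2 difference, miR-140 KO minus WT (horizontal axis), of each gene above the floor, by list (rows, with the number of genes). Red points are the members, blue points genes of other lists, orange bars the list medians, the grey band the central 95% of all genes compared (-0.69 to 0.47) and the thin line their median (-0.05). The members lie within the band, with a median of -0.15, while the chondrocyte markers lie far to the left with a median of -2.001.

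The same arrays differed in the signals of cell type markers. Chondrocyte markers were lower in the KO array for 15 of 15 genes above the floor, 13 of them past 2-fold (background 1.22%), with a median of -2.001. Their signals ran from 6.06 to 11.98 in the KO array and from 7.52 to 13.98 in the WT array, and Col2a1 and Acan read 11.98 and 7.99 in the KO array and 13.98 and 12.02 in the WT array. Sox9 stood at -1.18, Sox6 at -0.49 and Sox5 at -0.07, the last 2 not past 2-fold. Matn1 was under the floor in both arrays. Of 13 fibroblast and perichondrium markers 10 were higher, beside 40% of all genes compared, and their median was 0.37. The signals of these markers ran from 9.79 to 13.60 in the KO array and from 9.76 to 14.02 in the WT array. Col3a1 stood at 1.38, Lum at 0.96, Fbln2 at 0.72 and Postn at -1.26. Thy1 was under the floor. Of the 6 osteoblast markers named on the array none was above the floor. Of macrophage and leukocyte markers 4 of 12 were, with a median of 0.00, led by Cd14 at 0.36 and Adgre1 at -0.19, and Cd68 and Csf1r stood at 0.01 and -0.01. Of 8 endothelial markers Eng (-0.28) and Kdr (-0.06) were, and of 8 skeletal muscle markers Des (0.14). The part of cell type make-up in the differences of Fos, Junb, Egr1 and Dusp1 was not tested, and in bulk RNA fewer cells of a type and less RNA per cell cannot be told apart.

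Heat shock genes as a group had no direction that held across settings. Of 13 heat shock and dissociation stress genes 9 were lower, beside 59.2% of all genes compared, with a median of -0.14 that was 0.04 when only probe sets of 1 transcript were used. Hspa1b, an inducible HSP70 gene, read 8.58 in the KO array and 9.21 in the WT array (-0.63), with differences down to -1.05 over its 3 probe sets. Hspa1a read 6.28 and 7.07 (-0.78, its KO signal under the floor), and Bag3, a cochaperone, read 9.87 and 10.16 (-0.30). Hsph1 stood at -0.35, but at 0.16 by another probe set. Control probe sets of 18S ribosomal RNA had a median difference of -0.52 over 3. The 3′ minus 5′ signal of the actin controls was 0.54 in the KO array and 0.81 in the WT array, and that of the Gapdh controls -0.01 and 0.13. The arrays also differed in the X-linked Xist (10.60 in the KO array and 7.01 in the WT array) and the Y-linked Eif2s3y (4.18 and 8.86). This is the pattern of female RNA in the KO array and male RNA in the WT array, so sex and knockout cannot be told apart here. The part of handling, RNA quality or sex of the mice in the differences of the members was not tested.

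The differences of the 9 members kept their sign in every alternative setting in which the gene could be measured. Fos, Junb, Egr1, Ier2 and Dusp1 are measured by 1 probe set each. Settings of the floor or of the probe set summary could therefore not change their values, only remove a gene. The ranges of these genes come from centring and normalization alone. Fos ranged from -0.55 to -0.51 and Dusp1 from -0.56 to -0.50 over 10 settings, Egr1 from -0.35 to -0.31, and Junb from -0.39 to -0.37 over 9, since a floor of 8 removes it. Fosl2 ranged from 0.12 to 0.23, Jun from 0.09 to 0.13 and Ier2 from 0.06 to 0.09.

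**Figure D4:**
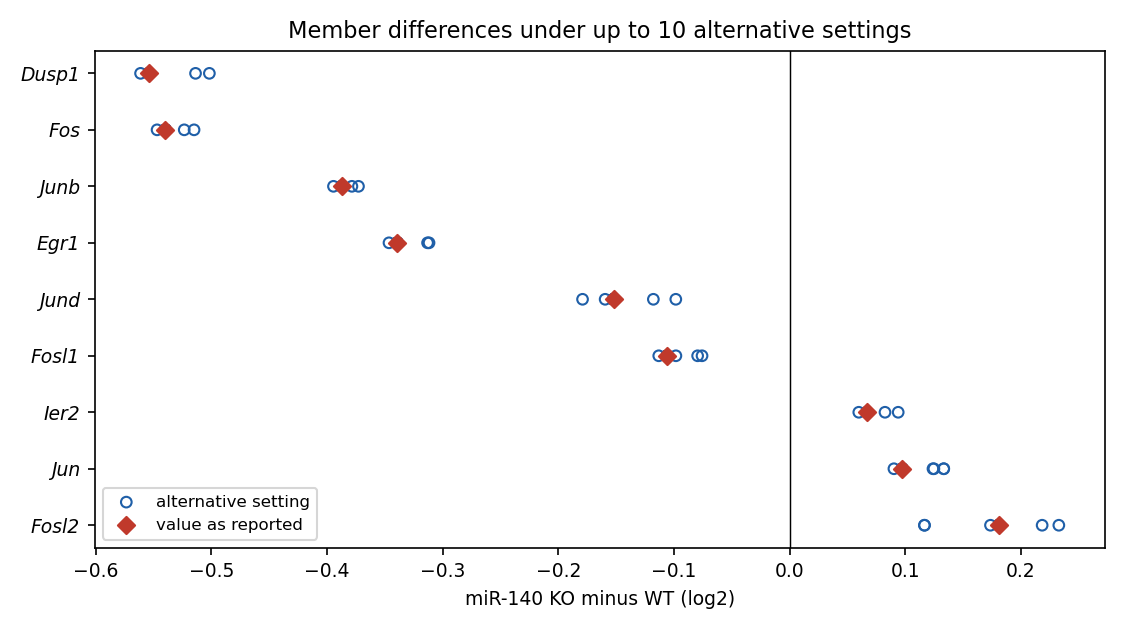
Log2 difference, miR-140 KO minus WT (horizontal axis), of the 9 members above the floor (rows), as reported (red diamonds) and under each alternative setting (open circles). No gene crosses 0, and Dusp1, Fos, Junb and Egr1 stay at or below -0.31. For members with 1 probe set, only centring and normalization could move the value, and only by little.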

How the data were processed

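Per the labels' design text, the authors summarised Affymetrix Mouse Genome 430 2.0 arrays by RMA, and per the submitters' processing notes they used Affymetrix Expression Console 1.1. The deposited values are therefore taken as log2 signals, a scale that their range (3.24 to 14.2) bears out. RMA gives all arrays nearly the same distribution, which hides a shift common to most genes, and shrinks differences of dim probe sets. It is not stated which arrays entered the same normalization.

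Symbols came from the platform annotation (34945 probe sets with 1 symbol, 932 with several, 9160 unlisted, 64 controls). Per gene the probe set of highest mean was kept, genes with a log2 signal of at least 7 in either array were compared, and the KO minus WT difference was taken with python 3.11.15, pandas 2.3.3 and statsmodels 0.14.6 (lowess). With 1 array per group there is no test, and precision is limited by that number. The counting was tested on simulated data. The members, the 13 other lists (9 of all 198 symbols not named here) and the motifs were chosen with earlier results of these data known. Named genes are all members, up to 4 genes per list with the largest differences above the floor, and Col2a1, Acan and Sox9. Sox5, Sox6 and Il6 were added after their values were seen. No gene is named for a pattern like that of a member, since 2 arrays give no pattern. Grouping followed the sample titles.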

Additional observations from a re-analysis of the deposited data

How the results depend on the processing

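The arrays were also centred on their medians, quantile normalized again or centred by lowess (span 0.2). The floor was set to 6 or 8, left out, or applied by raising lower values to 7. Genes were also summarised by the mean over every probe set, by the mean over those above the floor, or from probe sets of 1 transcript by name, and a threshold of 1.5-fold was tried. In these settings 5 to 7 members were lower and 3 higher, with a median of -0.25 to -0.10, and no member passed 1.5-fold. Changes were set against the SD of 0.27 between probe sets of a gene, a wide margin for differences this small. The macrophage and leukocyte median moved to 0.36 with a floor of 8, which leaves fewer genes. The medians of 6 lists changed sign. The serum response factor group turned to at most 0.02 in 5 settings, the kinases to 0.06 with the mean over every probe set, the other leucine zipper genes to 0.01 with the mean of probe sets above the floor, the other immediate early genes to -0.03 in the lowest of 3 settings, and the macrophage and leukocyte markers to -0.0067 with median centring. The sixth, the heat shock genes, was farther from 0 as reported (-0.14) and stood at -0.04 and -0.0074 with probe set means and at 0.04 with probe sets of 1 transcript. No direction is therefore given for these lists. No paired analysis was possible because each group has 1 array.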

Other observations

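Several stimulus-induced genes lay under the floor, and their values, chosen for mention after they were seen, had no common direction. Atf3, a stress-induced partner of JUN proteins, read 6.20 in the KO array and 6.91 in the WT array, a difference of -0.71, close below the floor. Klf10, a TGF-beta-induced factor, read 6.58 and 6.95 (-0.37), Egr2 4.61 and 4.84 (-0.23) and Arc 5.65 and 5.92 (-0.27). On the other side Trib1 read 6.91 in the KO array and 6.60 in the WT array (0.32), and Dusp4, a MAP kinase phosphatase, 5.48 and 4.73 (0.76). Signal at these levels is close to background.

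Among the immediate early genes above the floor that the naming rule did not pick, Ccn2 stood at -0.51, Sgk1 at -0.51 and Ccn1 at -0.47, near Fos and Dusp1, while Id1 stood at 0.38, Bhlhe40 at 0.28 and Plk2 at 0.28. These were also chosen after their values were seen.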
